A study of Homo sapiens with 6 samples.

Results

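AP-1 and immediate early transcription factors were followed in HO-1-N-1 cells, a human line from an oral squamous cell carcinoma, after knockdown of Sam68. The members were taken by gene symbol and comprise FOS, FOSB, FOSL1, FOSL2, JUN, JUNB, JUND, EGR1, SRF and IER5. All 10 were found among the 21462 genes of the expression table, and all 10 passed the filter on low counts. Messenger RNA was selected by its poly(A) tail and sequenced in 6 libraries. Cells of 3 libraries, numbered 1, 2 and 3, had received an siRNA against Sam68 with a lipid transfection reagent, and those of 3 libraries, numbered 1, 3 and 5, a control siRNA with the same reagent. Cells of both groups grew in medium with fetal bovine serum, and the sources used here give no time between transfection and harvest. The line is a single tumour line, and the labels do not say whether a group's libraries are separate cultures. Every p-value here therefore reflects only how these libraries vary, and that variation may be technical.

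AP-1 is a dimer of basic leucine zipper proteins. JUN family proteins pair with each other or with FOS family proteins, and FOS family proteins need a JUN partner to bind DNA. FOS, FOSB, JUN, JUNB, EGR1 and IER5 are immediate early genes, which are transcribed soon after growth factors, serum or stress reach a cell without new protein synthesis. SRF, serum response factor, is a DNA-binding protein that occupies CArG boxes in the promoters of many of these genes, among them FOS and EGR1. In stratified squamous epithelium AP-1 is known for its part in differentiation genes such as that for involucrin.

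Total counts ranged from 16402923 to 17336651 in the Sam68 siRNA libraries and from 16099488 to 16798283 in the control libraries. KHDRBS1, the gene for Sam68, was at 28.9, 32.9 and 31.4 TPM in Sam68 siRNA libraries 1, 2 and 3, against 248, 228 and 190 TPM in control libraries 1, 3 and 5 (TPM is a level scaled to transcript length and library size). All 14 squamous keratinocyte markers examined had counts in every library, with a summed level of 14109 to 14681 TPM in Sam68 siRNA libraries and 13338 to 14050 TPM in control libraries. Fibroblast markers summed to 13.5 to 17.0 TPM with the Sam68 siRNA and 30.4 to 38.0 TPM in controls, with PDGFRA and DPT at 0 counts throughout. Control library 5 stood apart from all the others. Its transcripts of the mitochondrial genome took 2.27% of counts, against 0.300% to 0.671% in Sam68 siRNA libraries and 0.158% and 0.216% in controls 1 and 3. Results are given with and without it. Control 5 was also 21.0, 34.7 and 7.01 times the mean of controls 1 and 3 for FOS, FOSB and EGR1. Fits without it thus leave out the library that was extreme in these members, and keep 2 controls. Their p-values do not include the spread that control 5 brings. In bulk RNA, fewer cells of a type and less RNA per cell cannot be told apart, and the part of the fibroblast markers and of the mitochondrial share in the results was not tested.

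CArG boxes and AU-rich elements are the sequences through which early genes are known to be induced and their mRNAs kept short-lived, so the member sequences that hold them are shown first. RefSeq promoter windows (GRCh38.p14, 250 bases before to 50 after the annotated start, both strands searched) were matched for 9 of the 10 members; FOSL1 had no match. The CArG box, the binding site of SRF, was found in the windows of 2 of these 9 members, EGR1 and SRF itself, against 1.29% of all 27305 genes with a window. Each of these windows held 2 boxes, which are in capitals below. In EGR1 they lie at positions -105 to -96 and -83 to -74 from the start, and in SRF at -30 to -21 and -10 to -1. The stretches are chr5:138465364-138465393, chr5:138465386-138465415, chr6:43171229-43171258 and chr6:43171249-43171268, all on the plus strand.
EGR1 distal box: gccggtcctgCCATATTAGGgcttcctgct
EGR1 proximal box: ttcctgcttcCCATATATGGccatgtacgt
SRF distal box: ctggggctcaCCATATAAGGagcggcctcg
SRF proximal box: agcggcctcgCCATAAAAGG
The same windows of EGR1 and SRF also held the EGR motif GCGNGGGCG, which 9.28% of all windows hold. The AP-1 site TGANTCA was found in 1 member window, that of FOSL2, against 7.76% of all windows, and the related TGACGTCA in that of JUND, against 1.98%. No match says only that these letters are not in these windows.

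The nonamer TTATTTATT, the core of AU-rich elements that shorten mRNA life, was searched on the mRNA strand in 1 GENCODE 29 transcript per gene. It was found in the 3' UTR of 4 of the 10 members, FOS, FOSL2, SRF and IER5, against 7.72% of 18427 genes. The 3' UTRs of these 4 were 806, 4864, 2317 and 3013 bases long, against a median of 919 bases over all those genes, and a longer 3' UTR has more room for a match. IER5 held 3 overlapping copies, of which the middle one is shown. The sites, with the nonamer in capitals, are chr14:75282060-75282088, chr2:28416355-28416383, chr6:43179224-43179252 and chr1:181092447-181092475, all on the plus strand of GRCh38.
FOS site: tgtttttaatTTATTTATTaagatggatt
FOSL2 site: atttattttaTTATTTATTttaaatgttt
SRF site: atggcaccacTTATTTATTgttgcctttt
IER5 site: cttcctttatTTATTTATTtatttaatta
The transcripts used for JUN, JUNB, JUND and IER5 had 1 exon, that of EGR1 2, those of the FOS family 4 and that of SRF 7.

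FOS, the founding AP-1 partner of JUN and an immediate early gene (ENSG00000170345, hg38 chromosome 14, 75278826 to 75282230, plus strand), was low in every library but one. It was at 3.87, 4.56 and 4.46 TPM in Sam68 siRNA libraries 1, 2 and 3, against 8.81, 9.88 and 196 TPM in control libraries 1, 3 and 5. All 3 Sam68 siRNA libraries lay below all 3 controls, and control 5 was 21.0 times the mean of controls 1 and 3. The mean was 4.30 ± 0.37 TPM with the Sam68 siRNA and 71.6 ± 108 TPM in controls (SD, n = 3 each), a log2 fold change of -4.12 (SE 1.81) that did not pass the test across all genes (adjusted p = 0.21 by edgeR's quasi-likelihood test). Without control 5 FOS fell, by 1.09 on the log2 scale (SE 0.15, adjusted p = 6.05e-05 by edgeR), at 0.46 of the level in controls 1 and 3. That fit leaves out the library in which FOS was extreme, so its small p-value rests on that exclusion. The authors' deposited table lists a log2 fold change of -4.12 with an FDR of 3.96e-08 for FOS; the authors' test is not named.

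EGR1, a zinc finger factor of the same early response (ENSG00000120738, chromosome 5, 138465479 to 138469303, plus strand), had the same layout of levels. Sam68 siRNA libraries 1, 2 and 3 held 18.5, 18.6 and 22.6 TPM, against 29.9, 38.1 and 238 TPM in control libraries 1, 3 and 5. The groups did not overlap, and control 5 was 7.01 times the mean of controls 1 and 3. The log2 fold change over 6 libraries was -2.41 (SE 1.08, adjusted p = 0.216 by edgeR). Without control 5 EGR1 fell by 0.75 on the log2 scale (SE 0.11, adjusted p = 0.00033 by edgeR). The authors' deposited table lists -2.41 with an FDR of 5.62e-06.

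FOSB, a FOS relative that was almost silent outside control 5 (ENSG00000125740, chromosome 19, 45467995 to 45475179, plus strand), did not follow FOS and EGR1 among the remaining libraries. It was at 1.04, 0.84 and 1.22 TPM in Sam68 siRNA libraries 1, 2 and 3, against 0.626, 0.738 and 23.6 TPM in control libraries 1, 3 and 5. These are 33, 28 and 38 reads in the Sam68 siRNA libraries, against 19, 23 and 747 reads in the controls. Control 5 was thus 34.7 times the mean of controls 1 and 3, while the Sam68 siRNA libraries lay above controls 1 and 3. The sign of the change depends on that library, with a log2 fold change of -3.07 over 6 libraries (SE 1.87, adjusted p = 0.341 by edgeR) and 0.62 without control 5 (SE 0.29, adjusted p = 0.146 by edgeR), neither past the threshold. The authors' deposited table lists FOSB at -3.07 with an FDR of 0.000781. FOSB lies within the span of ERCC1, a DNA repair gene on the other strand, which held 703% of its reads in all. The counting's strand setting is not given, so reads of both cannot be told apart at FOSB; ERCC1 itself held 1040, 1126 and 962 reads in Sam68 siRNA libraries 1, 2 and 3, and 978, 1079 and 1054 in controls 1, 3 and 5.

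FOSL1, which encodes FRA1 (ENSG00000175592, chromosome 11, 65892049 to 65900573, minus strand), was the most abundant FOS family mRNA in every library but control 5. It was at 206, 170 and 175 TPM in Sam68 siRNA libraries 1, 2 and 3, against 125, 130 and 185 TPM in control libraries 1, 3 and 5. Control 5 lay among the Sam68 siRNA libraries, and controls 1 and 3 below them. Over 6 libraries the log2 fold change was 0.31 (SE 0.19, adjusted p = 0.33 by edgeR). Without control 5 FOSL1 rose by 0.55 on the log2 scale (SE 0.08, adjusted p = 9.09e-05 by edgeR), to 1.44 times the level in controls 1 and 3. FOSL2, which encodes FRA2 (ENSG00000075426, chromosome 2, 28392448 to 28417317, plus strand), was at 51.7, 45.2 and 49.4 TPM in Sam68 siRNA libraries 1, 2 and 3, against 49.1, 51.7 and 47.5 TPM in controls 1, 3 and 5. Its groups overlapped, with a log2 fold change of -0.03 and a 95% interval of -0.16 to 0.10.

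**Figure D1:**
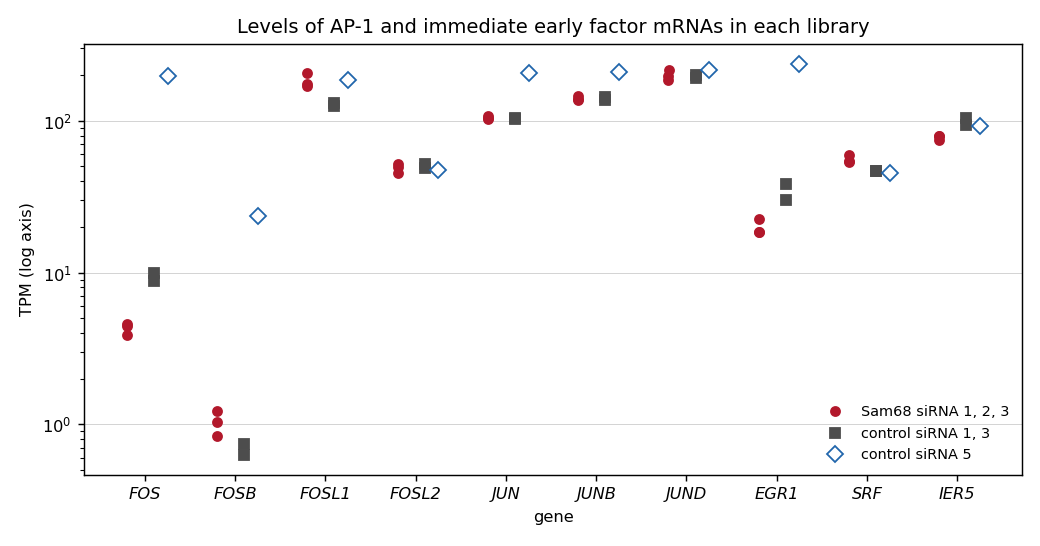
Level of each gene in TPM (log axis) in every library: filled circles for Sam68 siRNA libraries 1, 2 and 3, squares for control siRNA libraries 1 and 3, and an open diamond for control siRNA library 5. FOS, FOSB and EGR1 stand at 196, 23.6 and 238 TPM in control 5, far above their other points, while FOSL2 and SRF differ little between the 3 controls.

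In the JUN family, JUN and JUNB shared with FOS and EGR1 only the high level in control 5, in milder form, and JUND did not. JUN (ENSG00000177606, chromosome 1, 58780791 to 58784047, minus strand) was at 108, 102 and 104 TPM in Sam68 siRNA libraries 1, 2 and 3, against 103, 104 and 205 TPM in control libraries 1, 3 and 5. JUNB (ENSG00000171223, chromosome 19, 12791486 to 12793315, plus strand) was at 137, 139 and 146 TPM in Sam68 siRNA libraries 1, 2 and 3, against 138, 144 and 210 TPM in controls 1, 3 and 5. In both, the Sam68 siRNA libraries overlapped controls 1 and 3, and control 5 alone was high, at 1.98 times the mean of controls 1 and 3 for JUN and 1.49 times for JUNB. JUND (ENSG00000130522, chromosome 19, 18279694 to 18281622, minus strand), which is known as the steadily expressed member, was at 185, 216 and 199 TPM in Sam68 siRNA libraries 1, 2 and 3, against 192, 201 and 215 TPM in controls 1, 3 and 5.

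None of the 3 JUN genes passed the test by edgeR in either fit, and their raw p-values were 0.316, 0.273 and 0.743 over 6 libraries. Without control 5 the log2 fold changes of JUN, JUNB and JUND were 0.04, 0.02 and 0.05, with 95% intervals of -0.09 to 0.17, -0.12 to 0.16 and -0.10 to 0.21. Over 6 libraries they were -0.41, -0.24 and -0.03, with wider intervals of -1.40 to 0.57, -0.73 to 0.25 and -0.21 to 0.15. JUNB overlaps HOOK2 on the other strand, and HOOK2 as a whole held 39.0% as many reads as JUNB. Reads in the shared stretch were not counted apart, so how far the level of JUNB is uncertain is not known.

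SRF (ENSG00000112658, chromosome 6, 43171269 to 43181506, plus strand) was higher in every Sam68 siRNA library than in any control. It was at 59.4, 54.4 and 53.4 TPM in Sam68 siRNA libraries 1, 2 and 3, against 46.4, 46.7 and 45.0 TPM in control libraries 1, 3 and 5. SRF rose to 55.8 ± 3.21 TPM with the Sam68 siRNA, against 46.0 ± 0.93 TPM in controls (SD, n = 3 each), with a log2 fold change of 0.27 (SE 0.07, adjusted p = 0.015 by edgeR). Control 5 was in step with controls 1 and 3 here, at 0.97 of their mean, and without it SRF also rose, by 0.29. The call was lost without Sam68 siRNA library 1 or 2 (adjusted p = 0.0642 and 0.0638 by edgeR). The authors' deposited table lists SRF at 0.27 with an FDR of 0.0595.

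IER5 (ENSG00000162783, chromosome 1, 181088700 to 181092900, plus strand), an early response gene known to promote activity of the heat shock factor HSF1, was lower in every Sam68 siRNA library than in any control. It was at 75.1, 79.5 and 79.1 TPM in Sam68 siRNA libraries 1, 2 and 3, against 104, 93.7 and 92.9 TPM in control libraries 1, 3 and 5. IER5 fell to 77.9 ± 2.44 TPM with the Sam68 siRNA, against 96.9 ± 6.26 TPM in controls (SD, n = 3 each), with a log2 fold change of -0.32 (SE 0.06, adjusted p = 0.00503 by edgeR). It passed with each library left out in turn (adjusted p 0.0032 to 0.0263), and control 5 was at 0.94 of the mean of controls 1 and 3. The authors' deposited table lists -0.32 with an FDR of 0.000195. For FOS, EGR1, SRF and IER5, permuting the 6 TPM levels exactly (two-sided) gave p = 0.1 each, the smallest that 3 against 3 allows.

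Over 6 libraries, then, 1 of the 10 members rose and 1 fell, while of all 12351 tested genes 9.33% rose and 9.76% fell (19.1% in either direction), so the members' share was close to the background. The median log2 fold change of the members was -0.28 over 6 libraries, against -0.0048 over all tested genes. Without control 5 it was 0.034, against 0.0021 over all genes tested, so its negative sign depends on that library. Without control 5, 2 members rose (FOSL1 and SRF) and 3 fell (FOS, EGR1 and IER5), while of all 12482 genes tested 10.2% rose and 11.2% fell (21.4% in either direction). The TPM ranges of the groups did not overlap in 4 of 10 members with 3 controls, against 34.9% of tested genes, and in 6 of 10 with controls 1 and 3, against 48.9%. Without Sam68 siRNA library 1 or 2 no member rose and 1 fell. Fewer of all tested genes were called there too, with 5.82% and 4.27% that rose and 6.47% and 4.63% that fell, in that order. 

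**Figure D2:**
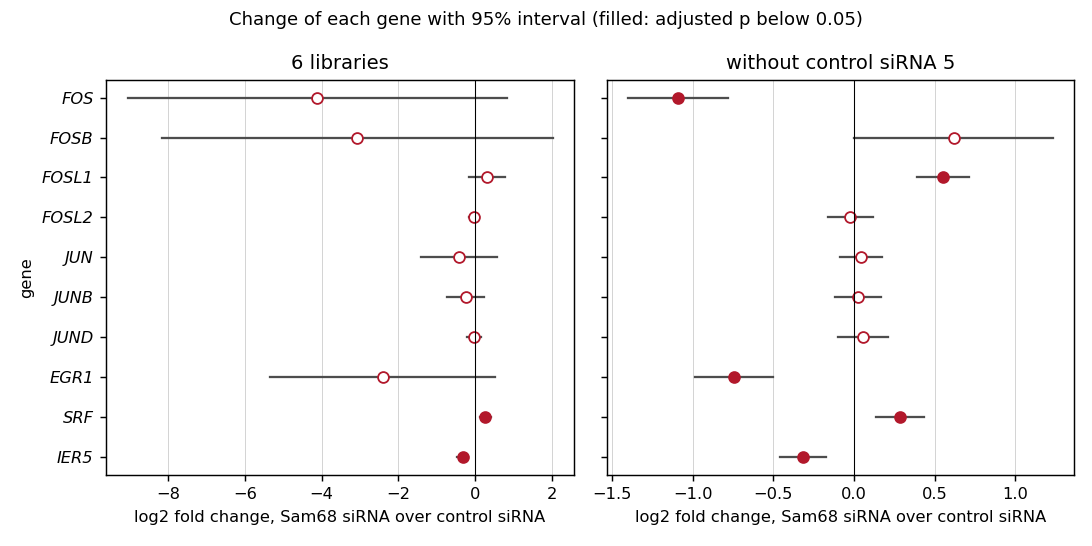
Log2 fold change of Sam68 siRNA over control siRNA for each gene, with its 95% interval as a bar, from the fit of 6 libraries (left) and without control siRNA library 5 (right); the axes differ, and filled points have an adjusted p below 0.05 by edgeR. FOS, FOSB and EGR1 have wide intervals on the left, and FOS and EGR1 are filled on the right at -1.09 and -0.75.

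Set against each other on the TPM scale, the members kept nearly one order of level in the Sam68 siRNA libraries and in controls 1 and 3. With the Sam68 siRNA the order from high to low was JUND, FOSL1, JUNB, JUN, IER5, SRF, FOSL2, EGR1, FOS and FOSB, with mean levels from 200 TPM for JUND to 1.03 TPM for FOSB. Only JUND and FOSL1 overlapped there among neighbours in the order. In controls 1 and 3 JUNB stood above FOSL1 and FOSL2 above SRF, and only JUN and IER5 overlapped among neighbours. In control 5 EGR1 led at 238 TPM, ahead of JUND, JUNB, JUN and FOS.

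Summed over the family, FOS family mRNA was at 262, 220 and 230 TPM in Sam68 siRNA libraries 1, 2 and 3, against 183, 193 and 452 TPM in controls 1, 3 and 5. FOSL1 made up 78.4%, 77.0% and 76.1% of that sum in the Sam68 siRNA libraries, against 68.1%, 67.7% and 40.9% in controls 1, 3 and 5. FOS made up 1.47%, 2.07% and 1.94% in the Sam68 siRNA libraries, against 4.81%, 5.13% and 43.4% in the controls. The FOS family mRNA was thus largely FOSL1 and FOSL2 in every library except control 5, where FOS held the largest share.

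JUN family mRNA summed to 430, 457 and 448 TPM in Sam68 siRNA libraries 1, 2 and 3, against 432, 449 and 631 TPM in controls 1, 3 and 5. JUND made up 43.1%, 47.2% and 44.3% of it in the Sam68 siRNA libraries, against 44.3%, 44.8% and 34.1% in the controls. JUN family mRNA exceeded FOS family mRNA in each of the 6 libraries.

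**Figure D3:**
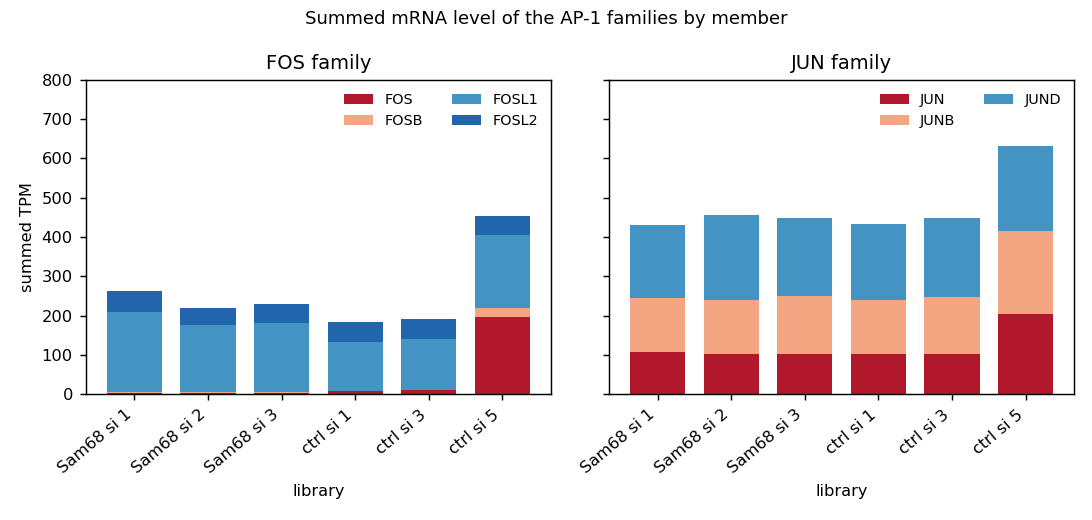
Summed TPM of the FOS family (left) and JUN family (right) in each library, stacked by gene, with Sam68 siRNA libraries first and control (ctrl) library 5 last. FOS (dark red, left) is a thin strip everywhere but in control 5, where the FOS family reaches 452 TPM.

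The other immediate early genes, a list of 32 that holds signalling regulators and further early factors, are shown with the members in the heat map. Of 26 tested, 0 rose and 5 fell over 6 libraries (19.2% fell, against 9.76% of all tested genes), with a median log2 fold change of -0.32. MCL1, an anti-apoptotic BCL2 relative, fell to 191 ± 6.0 TPM with the Sam68 siRNA, against 246 ± 3.45 TPM in controls (SD, n = 3 each; adjusted p = 0.000809 by edgeR). CCN1, a secreted matricellular protein, fell to 278 ± 23.5 TPM with the Sam68 siRNA, against 650 ± 118 TPM in controls. GADD45B, a stress response gene, fell by 0.51 on the log2 scale. PPP1R15A, a phosphatase subunit of the stress response, fell by 0.50.

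Without control 5, 1 of these genes rose and 10 fell (3.85% and 38.5%, against 10.2% and 11.2% of all genes tested). Their median log2 fold change was then -0.042. Without control 1 or any 1 of the Sam68 siRNA libraries, 0 rose and 3 fell, and without control 3, 0 rose and 5 fell. Of all genes tested, 17.1% were called without control 1 and 13.4% without control 3. Without Sam68 siRNA libraries 1, 2 and 3, in that order, 12.3%, 8.9% and 9.56% were called. List counts with 1 library left out, here and below, are to be read beside these shares. Control 5 exceeded the mean of controls 1 and 3 more than 2-fold in 4 of the 25 genes of this list with a mean of at least 1 TPM, DUSP1, CCN2, SGK1 and ZFP36, and in 3 of 10 members, FOSB, FOS and EGR1. Of all 11757 tested genes with such a mean, 0.808% did. The median ratio of control 5 to controls 1 and 3 was 1.35 for the list and 1.47 for the members.

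**Figure D4:**
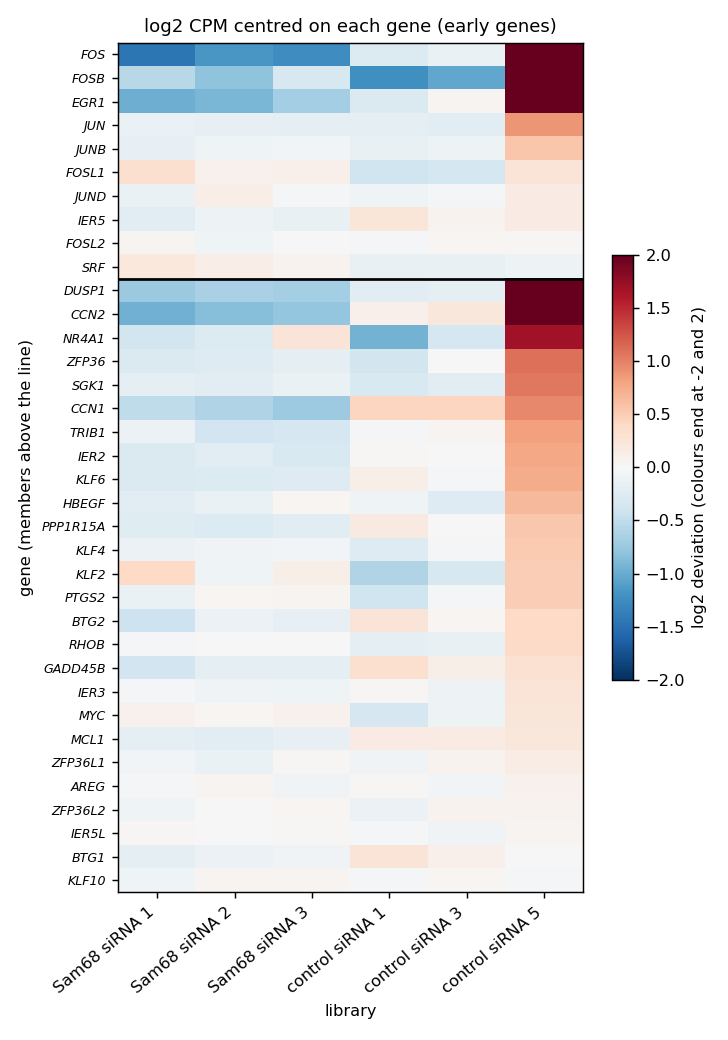
Deviation of log2 CPM from each gene's mean over 6 libraries for the 10 members (above the line) and 26 other immediate early genes (below), sorted by the value in control library 5; colours end at -2 and 2. The rightmost column, control 5, is red for FOS, FOSB, EGR1, DUSP1 and CCN2, and near white for KLF10, SRF and FOSL2.

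Genes whose profile over the 6 libraries was most like that of a member were sought among 9841 other tested genes with a mean of at least 5 TPM, by the root mean square difference of centred log2 CPM. The nearest to EGR1 were DUSP1, a phosphatase of MAP kinases, at 0.215, then CCN2 at 0.281 and SPRR2A at 0.41. DUSP1 was at 24.4, 25.2 and 25.6 TPM in Sam68 siRNA libraries 1, 2 and 3, against 35.2, 36.6 and 217 TPM in controls 1, 3 and 5. The nearest to FOS were DUSP1, CCN2 and SPRR2D, at larger distances of 0.842, 0.896 and 0.927. In control 5 the centred log2 CPM was 4.27 for FOS, 2.80 for EGR1, 2.48 for DUSP1 and 2.27 for CCN2, the highest value of each. These likenesses thus largely restate which genes were high in control 5, and likeness without it was not measured. FOSB, whose neighbours were chosen for naming after their values were seen, lay nearest to MT-CO1, a respiratory chain subunit of the mitochondrial genome, then to DUSP1 and MT-ND5 (0.822, 0.826 and 0.833). MT-CO1 was at 1511, 2647 and 2924 TPM in Sam68 siRNA libraries 1, 2 and 3, against 928, 1097 and 11270 TPM in controls 1, 3 and 5, so it too was highest in control 5. SRF lay nearest to TGFB1, CARM1 and PATZ1 (0.0177, 0.0216 and 0.0242), and IER5 to RARS1, CDK11B and LACTB (0.0123, 0.0199 and 0.0317).

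Upstream of the early genes, SRF cofactors were not called, and of all tested genes 19.1% were called over 6 libraries. With 5 cofactors tested, 0 called is too small a count to set against that share. Of 6 listed, 5 passed the filter and 0 rose or fell by edgeR, with or without control 5, and 0 by DESeq2 and limma-voom. In each edgeR fit 1 of the 5, ELK4, had an unadjusted p below 0.05. ELK4 had a log2 fold change of 0.21 over 6 libraries (adjusted p = 0.0528 by edgeR) and 0.21 without control 5 (adjusted p = 0.0646 by edgeR). ELK3, a ternary complex factor, was at 40.4 ± 2.35 TPM with the Sam68 siRNA and 37.9 ± 0.81 TPM in controls (SD, n = 3 each). MRTFA, an actin-regulated coactivator of SRF, was at 25.1 ± 1.3 TPM with the Sam68 siRNA and 25.7 ± 0.98 TPM in controls, and overlaps SGSM3 on the other strand.

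Of 22 tested cytoskeletal targets of SRF and its coactivators 6 rose and 2 fell, with or without control 5 (36.4% called, against 19.1% of all tested genes). ZYX overlaps EPHA1 on the other strand, and EPHA1 as a whole held 13.5% as many reads as ZYX. FHL1, a LIM domain protein, rose to 21.8 ± 0.89 TPM with the Sam68 siRNA, against 13.1 ± 0.59 TPM in controls (SD, n = 3 each; log2 fold change 0.73, adjusted p = 0.000203 by edgeR). TLN1, the integrin-linking protein talin, rose by 0.89, MYL9, a myosin light chain, by 0.48 and ZYX, the focal adhesion protein zyxin, by 0.38 on the log2 scale. Without control 3 or Sam68 siRNA library 1 or 2, 4 rose and 1 fell, and without Sam68 siRNA library 3, 5 rose and 1 fell.

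Of 23 kinases and scaffolds of the JNK, ERK and p38 pathways 4 rose and 4 fell, in both fits (34.8% called, against 19.1% of all tested genes over 6 libraries and 21.4% without control 5). The median log2 fold change was -0.03 over 6 libraries. MAPK3, the kinase ERK1, rose to 44.6 ± 0.90 TPM with the Sam68 siRNA, against 30.9 ± 2.64 TPM in controls (SD, n = 3 each; log2 fold change 0.52, adjusted p = 0.000585 by edgeR). MAP3K8 and MAP3K5, both MAP kinase kinase kinases, fell by 0.36 and 0.32. Without Sam68 siRNA libraries 1, 2 and 3, in that order, 1, 3 and 2 rose and 0, 0 and 1 fell, and without control 3, 2 rose and 0 fell. In the same order 4.35%, 13%, 13% and 8.7% were called, against 12.3%, 8.9%, 9.56% and 13.4% of all genes tested. DESeq2 called 3 higher and 2 lower (21.7%, against 17.6% of all tested genes). With limma on log2(TPM + 1), 3 were higher and 1 lower of the 21 it tested (19%, against 14.4% of all genes it tested).

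Among 15 tested AP-1 partner factors of the basic leucine zipper class 1 rose and 0 fell (6.67% called, against 19.1% of all tested genes). ATF2, a partner of JUN, rose to 18.4 ± 0.86 TPM with the Sam68 siRNA, against 12.6 ± 2.01 TPM in controls (SD, n = 3 each; log2 fold change 0.54, adjusted p = 0.00282 by edgeR). Without control 1, 2 rose and 1 fell, without control 3, 1 rose and 2 fell, and without any 1 of the Sam68 siRNA libraries 1 rose and 1 fell. Of 8 tested EGR1 corepressors and factors of AP-1 turnover 1 was called (12.5%, against 19.1% of all tested genes). This was COPS5, a subunit of the COP9 signalosome known to bind JUN. It fell to 69.9 ± 2.47 TPM with the Sam68 siRNA, against 96.0 ± 7.63 TPM in controls (log2 fold change -0.46, adjusted p = 0.00126 by edgeR). COPS5 overlaps CSPP1 on the other strand, and CSPP1 as a whole held 29.6% as many reads as COPS5.

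Downstream, 4 of 22 tested AP-1 targets of squamous cells rose and 3 fell (18.2% and 13.6%, against 9.33% and 9.76% of all tested genes), with a median log2 fold change of -0.12. IVL, involucrin of the cornified envelope, fell to 3.42 ± 0.72 TPM with the Sam68 siRNA, against 8.33 ± 0.97 TPM in controls (SD, n = 3 each; log2 fold change -1.30, adjusted p = 0.000951 by edgeR). EZR, the membrane linker ezrin, fell by 0.33 on the log2 scale, while VEGFA, the angiogenic growth factor, rose by 0.50. Without control 5, 8 rose and 4 fell (36.4% and 18.2%, against 10.2% and 11.2% of all genes tested), with a median of 0.16. Without control 1, 2 rose and 3 fell, and without control 3, 1 rose and 4 fell. Without Sam68 siRNA library 1, 1 rose and 3 fell, and without library 2 or 3, 1 rose and 2 fell.

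MMP1, the interstitial collagenase and an AP-1 target, was chosen after its values were seen. It was at 86.1, 57.3 and 55.5 TPM in Sam68 siRNA libraries 1, 2 and 3, against 23.2, 18.2 and 87.6 TPM in controls 1, 3 and 5. Control 5 lay above all 3 Sam68 siRNA libraries, and controls 1 and 3 below them. Its log2 fold change was 0.59 over 6 libraries (adjusted p = 0.652 by edgeR), and without control 5 it rose by 1.71 (adjusted p = 0.0226 by edgeR).

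Of 23 heat shock genes and phosphatase 2A subunits tied to IER5 and HSF1 1 rose and 0 fell (4.35% called, against 19.1% of all tested genes). HSPE1, the mitochondrial co-chaperonin, rose by 0.25 on the log2 scale (adjusted p = 0.0113 by edgeR) and overlaps HSPD1, so its level is uncertain. Without Sam68 siRNA library 1, 1 rose and 1 fell; without library 2, 0 and 0; without control 1, 2 and 1. DESeq2 called 2 higher and 2 lower (17.4%, against 17.6% of all tested genes). The filter of at least 50 counts in at least 3 libraries also gave 2 higher and 2 lower (17.4%, against 21.6%). In the main fit 7 of the 23 had an unadjusted p below 0.05 by edgeR. The low share of the main fit thus depends on the method and threshold. Of 11 factors that bind AU-rich elements 2 rose and 1 fell (27.3% called, against 19.1% of all tested genes). KHSRP, which promotes decay of mRNAs with such elements, rose to 234 ± 14.9 TPM with the Sam68 siRNA, against 183 ± 12.9 TPM in controls (SD, n = 3 each; log2 fold change 0.35, adjusted p = 0.00291 by edgeR). HNRNPD, known as AUF1, rose by 0.31 and AUH fell by 0.35. The fall was not called without any library but control 5, where 3 rose and 1 fell, and 1 rose without control 3 or Sam68 siRNA library 1 or 2.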

How the data were processed

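The authors deposited raw read counts per gene, per the file headers, beside RPKM and TPM values. The authors also deposited a signal headed CPM, not used here, and, per the file headers, a signed fold change (a score below 0 where lower with Sam68 siRNA), a log2 fold change, p-values and an FDR whose test is not named. Per the submitters' processing notes, reads were placed on hg38. No aligner, counting tool or strandedness is named in the sources used here. Groups and library numbers follow the titles.

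Counts were tested across all genes with edgeR 4.0.16 in R 4.3.3: filterByExpr (minimum count 10, minimum total 15), TMM scaling, the quasi-likelihood test with robust estimation and Benjamini-Hochberg adjustment over all tested genes. "Rose" and "fell" mean an adjusted p below 0.05. The SE is the one that the F statistic implies. Levels are the deposited TPM. The step was tested on simulated data, in which each gene had the spread typical of its level and no library stood apart. The simulation thus does not cover FOS, FOSB and EGR1, whose spread over 6 libraries was far larger. Alternatives were RLE scaling, DESeq2 1.42.0, limma-voom and limma on log2(TPM + 1) or log2(TPM + 0.1) (limma 3.58.1), other filters, a replicate block and each library left out. Members and lists were chosen with earlier results of these data known. Up to 4 called genes per list, by smallest p, were named, or 2 by level where none was called. Some genes that this rule names are not reported here. Genes most like a member were sought for all members and named for FOS, EGR1, SRF and IER5 by rule, and for FOSB after its values were seen. Motifs were searched in RefSeq and GENCODE 29 sequence with Python 3.11.15.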

Additional observations from a re-analysis of the deposited data

How the results depend on the processing

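The count of changed genes, 2358, was 1046 with the replicate number as a block and 1112 to 2666 with 1 library left out (1537, 1112 and 1195 without Sam68 siRNA library 1, 2 and 3); the other alternatives gave counts within 1.5 times of it. The count of changed members, 2, was 4 with the block (FOS, EGR1, FOSL1 and IER5) and 1 to 5 with 1 library left out, and 2 under each of the 7 other alternatives. Numbers 1 and 3 occur in both groups. Numbers 2 and 5 each occur in 1 group only, so the block takes up Sam68 siRNA library 2 and control 5 whole. The block fit thus compares libraries 1 and 3 of each group, and also leaves control 5 out. The deviations of same-numbered libraries from their group mean correlated at -0.0656 and 0.077. The control mean includes control 5, so these values cannot tell whether same-numbered libraries were paired. Under the block the log2 fold changes of FOSB, FOSL2, JUN and JUNB were 0.74, 0.015, 0.046 and 0.018, opposite in sign to those without it, and SRF had an adjusted p of 0.0825 by edgeR. With 1 library left out they ranged from -3.62 to 0.62 for FOSB, -0.060 to 0.0056 for FOSL2, -0.60 to 0.044 for JUN, -0.36 to 0.023 for JUNB and -0.11 to 0.054 for JUND; the upper ends came without control 5, except that of FOSL2, which came without Sam68 siRNA library 2, and the JUND sign also turned without Sam68 siRNA library 1 (0.034). With the block 1 of the kinases rose and 0 fell, 6 of the squamous AP-1 targets rose and 2 fell, 0 heat shock genes were called, and 1 AU-rich element factor rose. Of all tested genes 8.47% were called with the block, against 19.1% without it. FOS, EGR1 and FOSL1 passed without control 5 and with the block, and under none of the others. Control 5 does not enter the comparison in either of these fits, so the block is not separate support for the calls. IER5 passed under each alternative run. Depth limits FOSB most, with 19 to 38 reads outside control 5.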
